A study of Homo sapiens with 12 samples.

Results

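The genes of the extracellular matrix, of its receptors and of the mesenchymal state were followed in a pair of human cell lines from colorectal cancer, SW480 and HCT116, with USP51 overexpressed or with a control vector. All 50 genes of a list chosen by name were found in the deposited table, out of 17818 genes in all. The choice was made with earlier results of these data known. The list holds 11 genes for factors and markers of the epithelial-mesenchymal transition (EMT), 9 collagen, 5 laminin and 7 integrin genes, 9 genes for other matrix glycoproteins and proteoglycans, and 9 for matrix enzymes, inhibitors and a protease receptor. The 4 groups were SW480 with USP51 (genotype USP51-OE), SW480 with vector (genotype NC), HCT116 with USP51 and HCT116 with vector, each with 3 libraries by the labels and grown in DMEM with serum. USP51 is a ubiquitin-specific protease. Neither the promoter of the construct nor whether the cells were single clones or pools is stated in the labels.

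The matrix is a network of secreted proteins on which cells sit. Laminins and type IV collagen form the basement membrane under epithelia, and fibronectin and the fibrillar collagens form the looser stroma. Integrins, pairs of one alpha and one beta chain, hold cells to both. In EMT, transcription factors of the SNAI, ZEB and TWIST families lower epithelial genes such as CDH1, and cells take on mesenchymal proteins such as vimentin.

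The values are the authors' means of each group, since no label matches a column of any single library. No value therefore has a replicate error, and no p-value is given. Column headers mark the means with C or E. These letters were taken to stand for control and for USP51 overexpression, an assumption under every direction given with USP51, since the labels leave them undefined. USP51 itself was at 25.7 TPM, a unit scaled to transcript length and library total, in SW480 with USP51 and 0.513 TPM in SW480 with vector, and at 40.8 TPM in HCT116 with USP51 and listed at 0 in HCT116 with vector. The means summed to between 15506686 and 15920306 estimated counts. Differences are log2 ratios of TPM + 1, which understate the differences of low genes. They were taken where either group compared reached 1 TPM. A gene was counted as higher or lower past 1.5-fold on that scale, which sets a size and tests nothing. Ratios followed by parentheses compare counts as shares of the total count, and the parentheses hold the 95% exact interval. It treats a mean as 1 library and holds counting error alone. Replicates may differ by more, so a ratio whose interval lies off 1 may still fall within their spread. In bulk RNA, fewer cells of a kind and less RNA per cell cannot be told apart. Both lines carried epithelial markers, with 7 of 10 in each line at 1 TPM or more in at least 1 group. EPCAM was at 381.7 to 411.3 TPM. Of 10 fibroblast markers, ACTA2 reached 1 TPM and the others found in the table lay below it, with COL1A2 and DCN at 0.02 TPM or less.

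In HCT116, more of these genes lay above the vector value with USP51 than below it. Of 42 measured members 36 had a ratio above 1, beside 60.8% of all 12393 measured genes, and 6 had one below 1, beside 39.2%. Past 1.5-fold, 7 members were higher, where 1.96% of all genes were, and 2 were lower, where 0.145% were. At 2-fold, 2 were higher, where 0.258% of all genes were, and none lower, where 0.0242% were. The list and limits were chosen with earlier results of these data known, so these counts describe and do not test. The median log2 ratio was 0.26 for the members and 0.04 for all measured genes. The counting interval excluded 1 for 25 of the members with a ratio above 1 and for 4 of those below. It was not computed over all genes, so no share stands beside these counts. At this depth it excluded 1 even for a ratio of 0.969 (0.941 to 0.999), that of ITGB1. With FPKM in place of TPM the split past 1.5-fold was 3 higher and 2 lower. Adding 0.1 TPM in place of 1 TPM gave 9 higher and 2 lower. The shares of all genes given above hold for TPM + 1 and not for these settings. The 7 higher members were SPARC, TGM2, LOXL2, THBS1, FN1, TIMP2 and TIMP3, and the 2 lower ones were VCAN and HS3ST1. In SW480 no member was past 1.5-fold in either direction, where 0.534% of all genes were higher and 0.879% lower. Of 40 measured members 32 had a ratio below 1, beside 61.1% of all 12175 genes, and 8 had one above 1, beside 38.8%. None was past 2-fold, where 0.0739% of all genes were higher and 0.123% lower. The median log2 ratio was -0.11 against -0.04 for all genes. The count below 1 was 26 to 29 of 40 when the values were scaled as FPKM or as CPM with TMM or RLE factors. The share of all genes below 1 was computed on TPM alone, so none stands beside these counts.

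**Figure D1:**
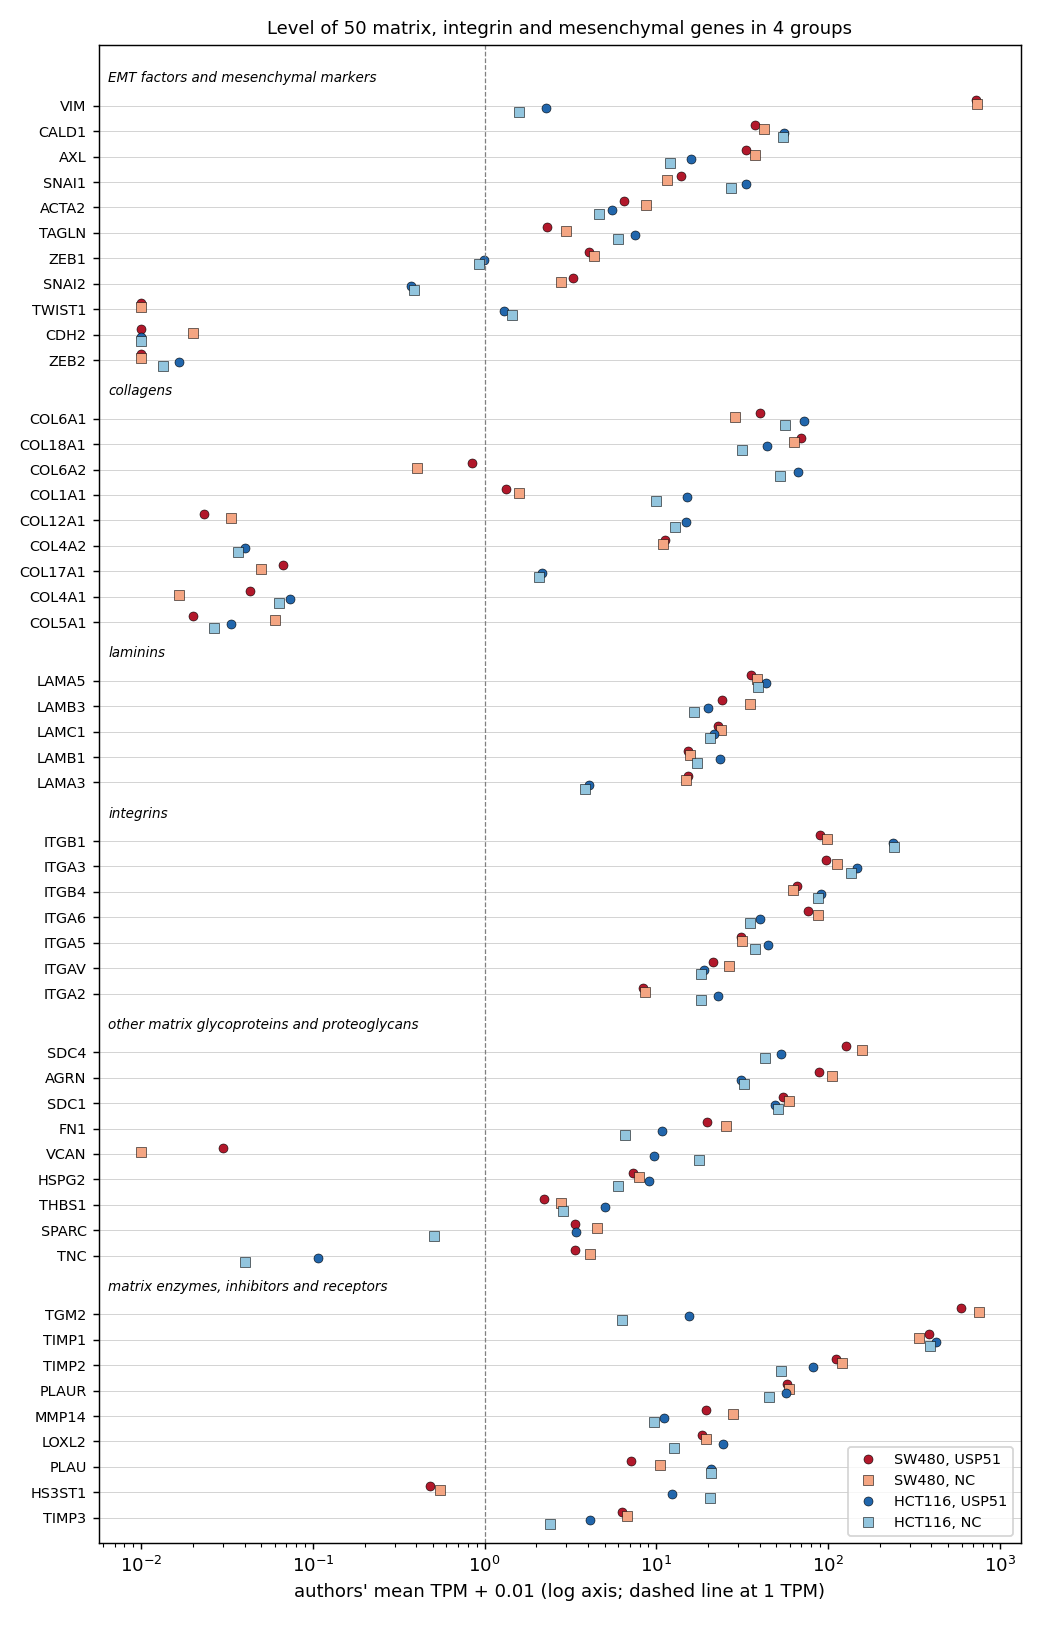
Level of each of the 50 genes in the 4 groups, as the authors' mean TPM plus 0.01 on a log axis, with 1 point per group (red tones SW480, blue tones HCT116; circles USP51, squares vector). Points of one line mostly lie close together, while VIM, TGM2, COL4A2 and TNC lie far higher in SW480 and VCAN, COL12A1 and COL6A2 far higher in HCT116.

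**Figure D2:**
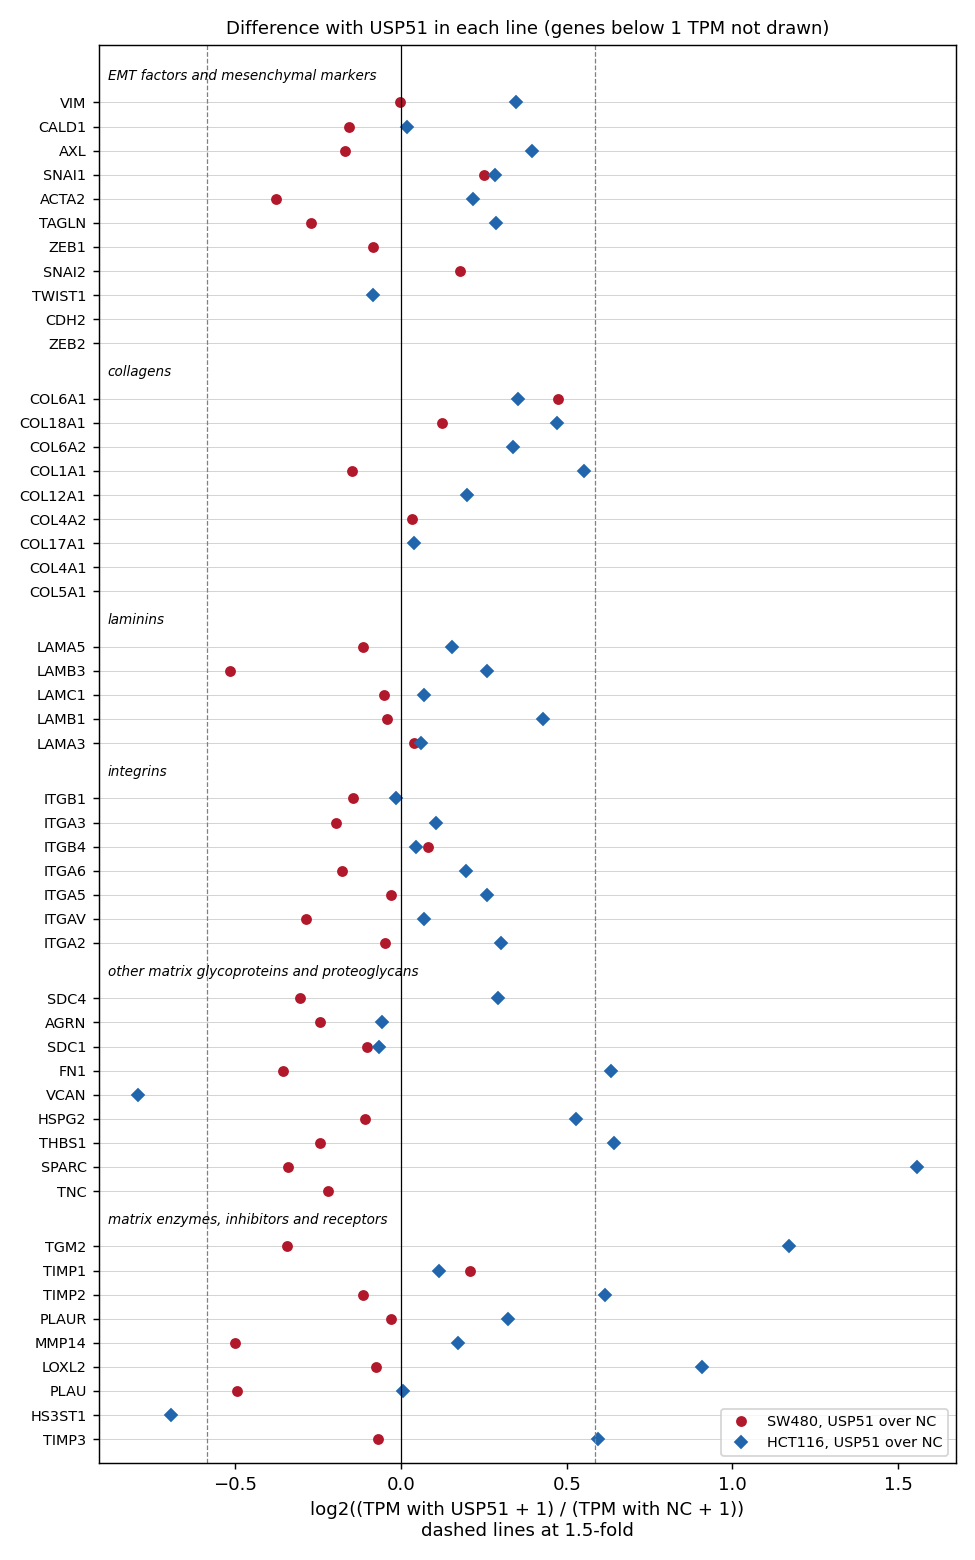
Log2 ratio of TPM + 1 with USP51 over vector for each measured gene, in SW480 (red circles) and HCT116 (blue diamonds), with dashed lines at 1.5-fold. In HCT116, 7 genes lie right of the upper line and VCAN and HS3ST1 left of the lower one, and no SW480 point passes either line.

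SPARC was the member with the largest difference in HCT116. It encodes a secreted glycoprotein that binds collagen and modulates how cells attach to matrix (NCBI gene 6678, chromosome 5, 151661096 to 151686915, GRCh38). Its level was 3.40 TPM in HCT116 with USP51 and 0.497 TPM in HCT116 with vector, on 109.3 and 16.7 counts, a ratio of 6.69 (3.90 to 11.6). In SW480 it was at 3.35 TPM with USP51 and 4.51 TPM with vector, a ratio of 0.766 (0.596 to 0.981). The HCT116 cells with USP51 were thus at a level like that of both SW480 groups, and the HCT116 vector cells stood alone below 1 TPM. VCAN, the gene of the large proteoglycan versican (NCBI gene 1462, chromosome 5, 83471744 to 83582302), lay below vector in HCT116. It was at 9.73 TPM with USP51 and 17.6 TPM with vector, a ratio of 0.537 (0.495 to 0.582), and near 0 in SW480, with a mean of 1 count with USP51 and none with vector. HS3ST1 encodes a heparan sulfate sulfotransferase (NCBI gene 9957, chromosome 4, 11393150 to 11434327). It was at 12.4 TPM in HCT116 with USP51 and 20.7 TPM with vector, a ratio of 0.592 (0.545 to 0.643), and at 0.473 TPM with USP51 and 0.537 TPM with vector in SW480.

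The promoter windows of these 3 genes, the ones with the largest difference in each direction that have a window in the RefSeq table, are given with CG dinucleotides in capitals, from 250 bases before to 50 after the start (GRCh38.p14). SPARC lies on the minus strand at chr5:151686866-151687165, VCAN on the plus strand at chr5:83471494-83471793 and HS3ST1 on the minus strand at chr4:11428845-11429144.
SPARC: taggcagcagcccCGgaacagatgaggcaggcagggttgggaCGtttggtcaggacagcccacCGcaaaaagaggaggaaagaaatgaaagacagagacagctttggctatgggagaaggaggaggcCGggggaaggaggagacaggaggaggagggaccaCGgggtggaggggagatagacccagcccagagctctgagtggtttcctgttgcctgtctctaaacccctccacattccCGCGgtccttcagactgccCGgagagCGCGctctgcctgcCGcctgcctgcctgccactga
VCAN: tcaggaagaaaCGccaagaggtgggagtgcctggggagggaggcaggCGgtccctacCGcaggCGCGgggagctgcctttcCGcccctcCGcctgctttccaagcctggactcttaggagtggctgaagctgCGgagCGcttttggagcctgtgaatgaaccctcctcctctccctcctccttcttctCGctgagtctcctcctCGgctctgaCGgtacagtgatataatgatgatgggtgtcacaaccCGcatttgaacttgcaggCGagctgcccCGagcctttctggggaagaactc
HS3ST1: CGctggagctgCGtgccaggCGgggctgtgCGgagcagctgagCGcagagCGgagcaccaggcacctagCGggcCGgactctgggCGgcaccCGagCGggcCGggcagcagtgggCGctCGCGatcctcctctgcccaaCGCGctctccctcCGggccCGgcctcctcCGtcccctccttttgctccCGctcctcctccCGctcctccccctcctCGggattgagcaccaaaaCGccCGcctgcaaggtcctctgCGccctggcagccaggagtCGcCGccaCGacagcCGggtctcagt
The SPARC window holds 11 CG dinucleotides, the VCAN window 15 and the HS3ST1 window 30. Over all 35116 promoter windows of the table the median was 14, with quartiles of 4 and 28. The 3 windows thus ran from below the median to above the upper quartile. CACCTG on either strand, the E-box that SNAI and ZEB factors bind, was in none of the 3. It was in 9 of the 59 windows listed for the members, where 20.6% of all windows hold it. These counts describe letters in the reference and not binding or methylation in these cells.

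Among the enzymes and inhibitors, TGM2 had the largest difference. It encodes transglutaminase 2, which crosslinks matrix proteins (NCBI gene 7052, chromosome 20, 38127385 to 38168475). Its level was 15.4 TPM in HCT116 with USP51 and 6.28 TPM with vector, on 553.7 and 237 counts, a ratio of 2.38 (2.05 to 2.79). SW480 cells had far more, at 593.7 TPM with USP51 and 753.5 TPM with vector, a ratio of 0.812 (0.798 to 0.826). The lines therefore differed in opposite directions, and the HCT116 level stayed well under that of SW480 in both groups. LOXL2 encodes a lysyl oxidase that crosslinks collagen. It was at 24.6 TPM in HCT116 with USP51 and 12.6 TPM with vector, a ratio of 1.91 (1.70 to 2.14), and at 18.5 TPM with USP51 and 19.5 TPM with vector in SW480. The tissue inhibitors of metalloproteinases differed by family member. TIMP2 was at 81.7 TPM in HCT116 with USP51 and 53.0 TPM with vector, a ratio of 1.51 (1.42 to 1.60). TIMP3 was at 4.12 TPM and 2.39 TPM there, a ratio of 1.69 (1.32 to 2.16), and TIMP1 at 427.5 TPM with USP51 and 394.5 TPM with vector, a ratio of 1.06 (0.996 to 1.12). In SW480 TIMP2 stood at 111.7 TPM with USP51 and 121.0 TPM with vector and TIMP3 at 6.34 and 6.71 TPM in that order of groups. TIMP1, the most abundant of the 3 in both lines, stood at 389.4 TPM in SW480 with USP51 and 337.1 TPM with vector, a ratio of 1.18 (1.11 to 1.26).

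The proteases were nearer to their vector value in HCT116. MMP14, the membrane-bound metalloproteinase that cleaves collagen, was at 11.1 TPM with USP51 and 9.70 TPM with vector, and PLAU, the urokinase gene, at 20.9 TPM with USP51 and 20.8 TPM with vector. In SW480 both were among the members farthest below vector. There MMP14 was at 19.3 TPM with USP51 and 27.8 TPM with vector, a ratio of 0.718 (0.652 to 0.791), and PLAU at 7.16 TPM with USP51 and 10.5 TPM with vector, a ratio of 0.703 (0.570 to 0.862). PLAUR, the urokinase receptor, was at 57.2 TPM with USP51 and 45.6 TPM with vector in HCT116, and at 57.9 TPM with USP51 and 59.2 TPM with vector in SW480.

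Of the matrix glycoproteins, FN1 and THBS1 joined SPARC past 1.5-fold in HCT116. FN1, the fibronectin gene (NCBI gene 2335, chromosome 2, 215360865 to 215436068), was at 10.8 TPM with USP51 and 6.59 TPM with vector, a ratio of 1.60 (1.44 to 1.78). In SW480 it was at 19.7 TPM with USP51 and 25.5 TPM with vector, a ratio of 0.802 (0.752 to 0.855). The table spreads FN1 over 30 transcript rows, of which 10 reached 1 TPM in some group, so only the sum is used. THBS1, the gene of the adhesive glycoprotein thrombospondin, was at 5.00 TPM with USP51 and 2.85 TPM with vector in HCT116, a ratio of 1.71 (1.41 to 2.07). In SW480 it was at 2.20 TPM with USP51 and 2.79 TPM with vector. HSPG2, which encodes the basement membrane proteoglycan perlecan, lay just under the limit in HCT116, at 9.08 TPM with USP51 and 5.99 TPM with vector, a ratio of 1.49 (1.37 to 1.62). All 8 measured genes of this group lay below vector in SW480, where 61.1% of all genes did, with log2 ratios from -0.36 to -0.10. All 8 stayed below it under each scaling tried, though the 61.1% was taken on TPM alone. SDC4 and AGRN, a cell-surface and a basement membrane proteoglycan gene, were the most abundant of them in SW480. SDC4 was at 127.6 TPM in SW480 with USP51 and 157.9 TPM with vector, and at 53.1 TPM with USP51 and 43.1 TPM with vector in HCT116. AGRN was at 88.2 TPM with USP51 and 104.8 TPM with vector in SW480, and at 31.1 TPM with USP51 and 32.4 TPM with vector in HCT116. SDC1, a syndecan like SDC4, differed by ratios of 0.959 (0.898 to 1.03) in SW480 and 0.937 (0.871 to 1.01) in HCT116. TNC, the tenascin C gene, was at 3.36 TPM with USP51 and 4.08 TPM with vector in SW480 and below 0.1 TPM in both HCT116 groups.

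The collagen genes lay above vector in HCT116 without passing 1.5-fold. All 6 measured had a ratio above 1, where 60.8% of all genes did, with a median log2 ratio of 0.34. All 6 stayed above 1 under each scaling tried, though the 60.8% was taken on TPM alone. COL1A1, a chain of the main fibrillar collagen, came nearest to the limit, at 15.1 TPM with USP51 and 9.95 TPM with vector, a ratio of 1.49 (1.34 to 1.65). COL18A1, a basement membrane collagen gene, was at 44.2 TPM with USP51 and 31.6 TPM with vector, a ratio of 1.37 (1.28 to 1.46). COL6A1 and COL6A2, which encode chains of the same microfibrillar collagen, had like ratios in HCT116. COL6A1 was at 72.5 TPM with USP51 and 56.5 TPM with vector, a ratio of 1.26 (1.19 to 1.33), and COL6A2 at 66.9 TPM with USP51 and 52.8 TPM with vector, a ratio of 1.24 (1.16 to 1.32). COL12A1 was at 14.9 TPM with USP51 and 12.9 TPM with vector, and COL17A1, the gene of a transmembrane collagen of hemidesmosomes, at 2.16 and 2.07 TPM. In SW480 COL6A1 was the farthest above vector of the members that reached 1 TPM there, at 40.1 TPM with USP51 and 28.6 TPM with vector, a ratio of 1.45 (1.34 to 1.56). COL6A2 was below 1 TPM in both SW480 groups, on 28.7 counts with USP51 and 12.7 counts with vector, a ratio of 2.22 (1.10 to 4.59). COL18A1 in SW480 was at 69.2 TPM with USP51 and 63.4 TPM with vector. COL1A1 was at 1.33 TPM with USP51 and 1.58 TPM with vector. COL5A1, a minor fibrillar chain gene, was at 0.05 TPM or less in all 4 groups.

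In HCT116 the laminins and integrins had smaller median log2 ratios, 0.15 and 0.11, than the collagens. LAMB3, a chain of the laminin of epithelial hemidesmosomes, was the member farthest below vector in SW480, at 24.1 TPM with USP51 and 34.9 TPM with vector, a ratio of 0.709 (0.653 to 0.770). In HCT116 it was at 19.9 TPM with USP51 and 16.5 TPM with vector, a ratio of 1.18 (1.06 to 1.31). LAMB1 was at 23.5 TPM with USP51 and 17.2 TPM with vector in HCT116, a ratio of 1.33 (1.23 to 1.45), and at 15.3 and 15.8 TPM in SW480 with USP51 and with vector. LAMA5, the most abundant laminin gene, was at 43.4 TPM with USP51 and 38.9 TPM with vector in HCT116 and at 35.5 TPM with USP51 and 38.5 TPM with vector in SW480. LAMC1 and LAMA3 had log2 ratios between -0.05 and 0.07 in both lines. The 7 integrin genes had log2 ratios from -0.02 to 0.30 in HCT116 and from -0.29 to 0.08 in SW480. ITGB1, the shared beta chain of many integrins, was at 238.6 TPM with USP51 and 241.4 TPM with vector in HCT116, and at 89.3 TPM with USP51 and 98.9 TPM with vector in SW480. ITGA3, the alpha chain of a laminin receptor, was at 146.7 TPM with USP51 and 136.3 TPM with vector in HCT116 and at 97.9 TPM with USP51 and 112.3 TPM with vector in SW480. ITGA2, a collagen receptor chain, had the largest ratio of these 7 in HCT116, 1.22 (1.14 to 1.31), and ITGAV, a chain of RGD-binding integrins, the lowest of these 7 in SW480, 0.837 (0.782 to 0.894). ITGA5, which pairs with ITGB1 as a fibronectin receptor, had a ratio of 1.18 (1.09 to 1.27) in HCT116 and 1.01 (0.929 to 1.10) in SW480. ITGA6 and ITGB4 encode the chains of the laminin receptor of hemidesmosomes. ITGA6 was at 40.1 TPM with USP51 and 34.9 TPM with vector in HCT116 and at 76.8 TPM with USP51 and 87.0 TPM with vector in SW480. ITGB4 was at 90.5 TPM with USP51 and 87.6 TPM with vector in HCT116 and at 66.0 TPM with USP51 and 62.4 TPM with vector in SW480.

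None of the EMT transcription factors was past 1.5-fold with USP51 in either line. SNAI1, a zinc finger repressor of CDH1 (NCBI gene 6615, chromosome 20, 49982980 to 49988886), was the most abundant. It was at 33.3 TPM with USP51 and 27.2 TPM with vector in HCT116, a ratio of 1.20 (1.05 to 1.38), and at 13.9 TPM with USP51 and 11.5 TPM with vector in SW480, a ratio of 1.24 (1.01 to 1.53). The related SNAI2 was at 3.27 TPM with USP51 and 2.77 TPM with vector in SW480 and below 1 TPM in HCT116. ZEB1 was at 4.02 TPM with USP51 and 4.33 TPM with vector in SW480, a ratio of 0.964 (0.807 to 1.15), and at 0.983 TPM with USP51 and 0.913 TPM with vector in HCT116. TWIST1 was listed at 0 in SW480 and stood at 1.29 TPM with USP51 and 1.43 TPM with vector in HCT116. ZEB2 and CDH2, the N-cadherin gene, had means of less than 1 count in each group. With 3 counts as the limit that a count of 0 allows, CDH2 was not detectable at this depth. CDH1, the E-cadherin gene that these factors repress, was at 41.5 TPM with USP51 and 33.4 TPM with vector in HCT116 and at 7.19 TPM with USP51 and 9.40 TPM with vector in SW480. Of a list of 20 epithelial genes that includes CDH1, none was past 1.5-fold among the 17 measured in SW480 or the 20 measured in HCT116. Of all genes, 0.534% were higher and 0.879% lower past it in SW480, and 1.96% and 0.145% in HCT116. A count of none is near those shares. VIL1, the villin gene of the brush border and one of the epithelial markers outside that list, was past 1.5-fold in SW480. It was at 12.46 TPM with USP51 and 7.55 TPM with vector there, a ratio of 1.70 (1.52 to 1.91), and below 1 TPM in HCT116.

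VIM, the vimentin intermediate filament gene (NCBI gene 7431, chromosome 10, 17228241 to 17237593), differed between the lines far more than with USP51. It was at 731.5 TPM in SW480 with USP51 and 732.5 TPM with vector, a ratio of 1.03 (1.003 to 1.05), and at 2.28 TPM in HCT116 with USP51 and 1.58 TPM with vector, a ratio of 1.41 (0.854 to 2.45). The table holds VIM in 2 transcript rows. Its predicted transcript XM_006717500.2 was at 730.7 TPM in SW480 with USP51 and 729.6 TPM with vector, and at 2.05 TPM in HCT116 with USP51 and 1.36 TPM with vector. The curated transcript NM_003380.5 was at 0.750 TPM in SW480 with USP51 and 2.81 TPM with vector, on 15.4 and 55.4 counts, and at 0.233 TPM in HCT116 with USP51 and 0.223 TPM with vector. The curated row alone would thus put VIM lower in SW480 with USP51, at a log2 ratio of -1.12, while that of the summed rows was -0.00. TGM2 was split in the same manner, with 578.7 of its 593.7 TPM in SW480 with USP51 and 735.0 of 753.5 TPM with vector on the predicted transcript XM_011529028.1. In HCT116 that row was at 13.6 TPM with USP51 and 5.65 TPM with vector. Its main curated row, NM_198951.3, was at 1.40 TPM with USP51 and 0.487 TPM with vector in HCT116, so both rows lay above vector. THBS1 had a predicted row at 3.90 TPM with USP51 and 2.15 TPM with vector in HCT116 and a curated row at 1.10 and 0.697 TPM in the same order of groups. Since the counting setting for strand is not given in the sources used here, reads of genes antisense to these cannot be told apart from theirs.

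The other mesenchymal markers stayed within 1.5-fold. AXL, a receptor tyrosine kinase gene, was at 16.0 TPM with USP51 and 11.9 TPM with vector in HCT116, a ratio of 1.31 (1.17 to 1.47), and at 33.1 TPM with USP51 and 37.3 TPM with vector in SW480, a ratio of 0.913 (0.852 to 0.977). TAGLN, ACTA2 and CALD1 encode proteins of the contractile actin skeleton. TAGLN was at 7.51 TPM with USP51 and 5.98 TPM with vector in HCT116 and at 2.30 TPM with USP51 and 2.98 TPM with vector in SW480. ACTA2 was at 5.51 TPM with USP51 and 4.60 TPM with vector in HCT116, and at 6.45 TPM with USP51 and 8.67 TPM with vector in SW480, with an interval of the ratio that included 1 in each line. CALD1, the most abundant of them, was at 55.5 TPM with USP51 and 54.8 TPM with vector in HCT116 and at 37.7 TPM with USP51 and 42.1 TPM with vector in SW480.

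Where both lines could be compared, their differences often had opposite signs. Of the 36 members measured in both, 27 lay above vector in HCT116 and below it in SW480, beside 38.1% of the 11332 genes measured in both. Of the rest, 6 lay above vector in both lines, beside 21.2% of all genes, and 3 below it in both, beside 23.2%. The 6 were SNAI1, COL6A1, COL18A1, LAMA3, ITGB4 and TIMP1, and the 3 were ITGB1, AGRN and SDC1. The signs of LAMA3 and ITGB4 in HCT116 turned with CPM in place of TPM, to within 0.01 of 0. Among the 27, the signs of ITGA2, ITGA5, LAMB1, LAMC1, PLAUR and VIM in SW480 and of PLAU and CALD1 in HCT116 turned under at least 1 of CPM and FPKM, and each of these log2 ratios was within 0.06 of 0. The log2 ratio was larger in HCT116 than in SW480 for 33 of the 36, beside 65.0% of the 11332 genes. This difference between lines was not tested, and the same vector and USP51 means enter it as enter each comparison.

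**Figure D3:**
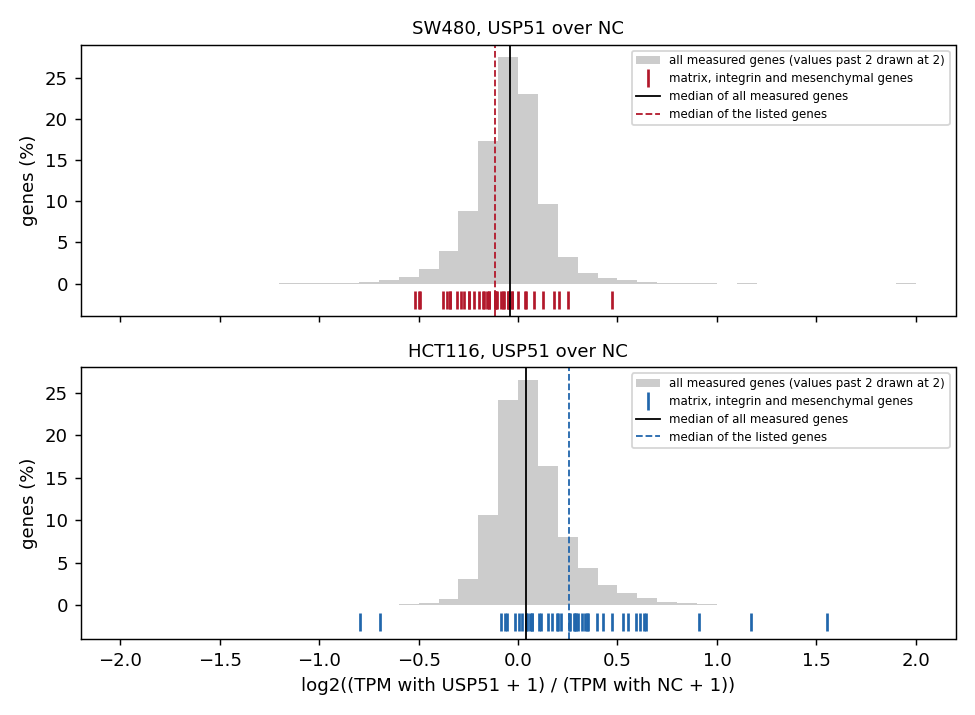
Share of all measured genes (grey bars, percent) by log2 ratio of TPM + 1 with USP51 over vector, in SW480 (top) and HCT116 (bottom), with the listed genes as ticks and medians as lines. In HCT116 the median of the listed genes, 0.26, lies to the right of that of all genes, 0.04, and in SW480 it lies slightly to the left, at -0.11 against -0.04.

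Transcript length moved with these differences. Over all measured genes the Spearman correlation of the log2 ratio with length was 0.206 in HCT116 and -0.121 in SW480, a description across genes that are not independent. The measured members in HCT116 had a median length of 4.12 kb, computed from counts and FPKM, and all measured genes one of 2.77 kb. Among the longest 25% of genes in HCT116, from 4.33 kb, the median log2 ratio was 0.08 and 1.61% were past 1.5-fold higher. The 20 members of that length had a median of 0.17, and the 22 shorter members one of 0.28. In SW480 the medians were -0.06 for the longest 25% of genes, -0.11 for the 20 members among them and -0.13 for the 20 shorter members. The part of length in the differences was not tested.

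Between the lines themselves, without USP51, these genes differed far more than with USP51. Of 46 members measured in the vector cells, 17 were at least 2-fold higher in SW480 than in HCT116, where 13.4% of all 13033 genes were, and 10 were at least 2-fold lower, where 14.7% were. At 4-fold, 4 were higher and 5 lower, where 4.82% and 4.24% of all genes were. Counting any difference, 25 lay higher in SW480, beside 46.7% of all genes, and 21 lower, beside 53.3%. SW480 stood higher in VIM, with a ratio of counts per total of 454 (316 to 698), in TGM2, with 124 (110 to 142), and in COL4A2, with 430 (98.9 to 2966). The ratio of COL4A2 rests on 1.67 counts in HCT116 vector cells. TNC (ratio 179, 40.8 to 1235), SPARC (9.11, 5.40 to 15.7), SNAI2 (7.31, 3.30 to 16.9) and ZEB1 (4.76, 3.57 to 6.53) were also higher in SW480. All 12 transcript rows of TNC are predicted, and its ratio rests on 1.67 counts in HCT116 vector cells. SW480 was lower in VCAN, at 0 counts and at least 577-fold lower than in HCT116 at a floor of 3 counts per mean. COL6A2 was lower in SW480 too, with a ratio of 0.00744 (0.00406 to 0.0131). COL12A1 had 2.33 counts in SW480 vector cells and 1295 in HCT116 vector cells, a ratio of 0.00182 (0.000189 to 0.00566). HS3ST1 had a ratio of 0.0309 (0.0227 to 0.0412) and COL1A1 one of 0.158 (0.125 to 0.197). SNAI1 was lower in SW480 by a ratio of 0.426 (0.354 to 0.510), so the SNAI genes ran in opposite directions between the lines. The members past 1.5-fold with USP51 in HCT116 were not all ones that SW480 held at a higher level. SPARC, TGM2, FN1, TIMP2 and TIMP3 were at least 2-fold higher in SW480 vector cells than in HCT116 vector cells, LOXL2 had a ratio of 1.56 (1.38 to 1.76), and THBS1 one of 0.999 (0.807 to 1.24). The same HCT116 vector mean enters both comparisons, on 16.7 counts for SPARC, so a low mean there raises both ratios. The share of all genes past both limits was not computed, so none stands beside these members.

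Genes of partner collagen chains stood at unlike levels in SW480. COL4A1 and COL4A2 encode the chains of the main type IV collagen and lie head to head on chromosome 13, with starts at 110307157 and 110307284 and 126 bases between them. In SW480 COL4A2 was at 11.2 TPM with USP51 and 10.9 TPM with vector, on 762.3 and 707.7 counts. COL4A1 was at 0.0333 TPM with USP51 and 0.00667 TPM with vector there, on 2.33 and 0.333 counts. In HCT116 both stayed below 0.1 TPM in each group. COL6A1 and COL6A2, neighbours on chromosome 21, likewise stood far apart in SW480, at 28.6 TPM and 0.397 TPM in vector cells, and close together in HCT116 vector cells, at 56.5 TPM and 52.8 TPM. The window of the COL4A2 start, on the plus strand at chr13:110307034-110307333, is shown because it holds both starts, with the bases between them in capitals.
COL4A2: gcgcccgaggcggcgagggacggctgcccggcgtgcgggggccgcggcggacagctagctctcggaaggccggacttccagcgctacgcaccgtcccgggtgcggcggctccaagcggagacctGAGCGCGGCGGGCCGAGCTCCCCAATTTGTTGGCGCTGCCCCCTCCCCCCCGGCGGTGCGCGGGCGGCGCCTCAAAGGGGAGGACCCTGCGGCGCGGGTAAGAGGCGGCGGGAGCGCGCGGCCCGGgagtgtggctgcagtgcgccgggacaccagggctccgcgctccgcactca
Of the 126 bases between the starts, 20 CG dinucleotides were counted, so the promoters of both genes share a CG-rich stretch of reference sequence. Both pairs were chosen for description with their values in view.

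**Figure D4:**
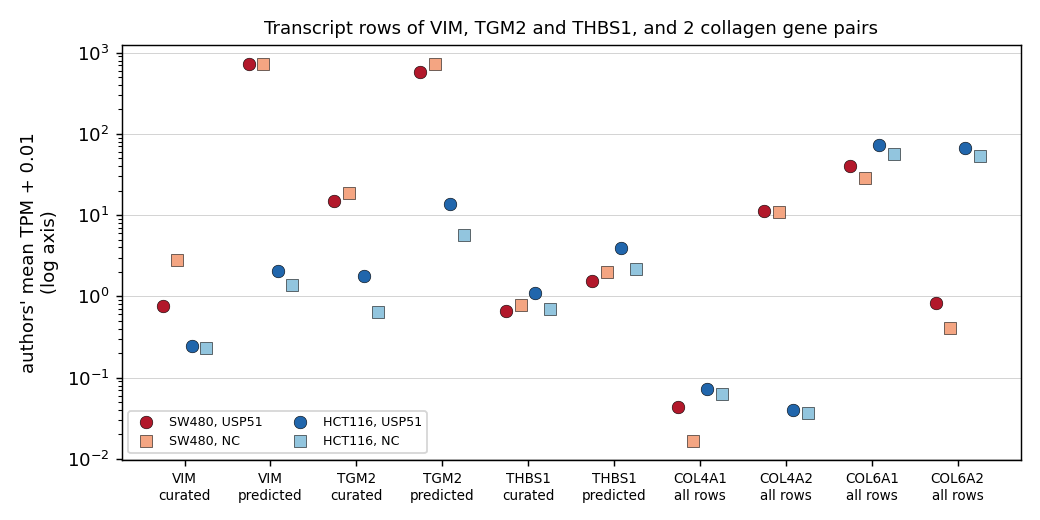
Authors' mean TPM plus 0.01 on a log axis for the curated and predicted transcript rows of VIM, TGM2 and THBS1 and for all rows of the COL4A1, COL4A2, COL6A1 and COL6A2 genes, with 1 point per group. The predicted rows of VIM and TGM2 hold nearly all of their level in SW480, and COL4A1 and COL6A2 lie far under COL4A2 and COL6A1 there.

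A wider set of 149 matrix and mesenchymal genes in 7 lists was described in the same way. These lists too were chosen with earlier results of these data known. In HCT116, 71 of the 86 measured lay above vector with USP51, where 60.8% of all genes did. Of these genes 8 were past 1.5-fold higher and 1 past 1.5-fold lower, where 1.96% and 0.145% of all genes were. The median log2 ratio was 0.15, against 0.04 for all genes. Enzymes that modify collagen were above vector in 13 of 14 cases in HCT116, beside the same 60.8% of all genes, and in 7 of 13 in SW480, beside 38.8%. In HCT116 P4HA1 and PLOD2, which hydroxylate its prolines and lysines, were past the limit. P4HA1 was at 42.7 TPM with USP51 and 20.9 TPM with vector, a ratio of 2 (1.81 to 2.22), and PLOD2 at 36.5 TPM with USP51 and 19.3 TPM with vector, a ratio of 1.84 (1.68 to 2.02). The matricellular genes CCN2 and CCN1 had ratios of 2.50 (1.87 to 3.41) and 1.72 (1.60 to 1.84), and the glypican gene GPC3 one of 2.61 (1.44 to 4.99) on 41 counts with USP51 and 16 with vector. Of 10 further collagen genes measured, COL13A1 had a ratio of 2.18 (1.64 to 2.88) and COL9A3 one of 1.58 (1.42 to 1.75). The gene below was the laminin gene LAMA4, at 1.11 TPM with USP51 and 2.25 TPM with vector, a ratio of 0.554 (0.402 to 0.754). In SW480, 53 of 79 lay below vector, a share near the 61.1% of all genes, with a median of -0.10 against -0.04 for all genes. Of these 79 genes 1 was past 1.5-fold higher and 1 past 1.5-fold lower, where 0.534% and 0.879% of all genes were. Each count is near its share. FSCN1, which bundles actin in cell protrusions, was past 1.5-fold higher, at 83.4 TPM with USP51 and 52.2 TPM with vector, a ratio of 1.65 (1.54 to 1.76). SERPINB5, the maspin gene, was past 1.5-fold lower, at 0.993 TPM with USP51 and 2.45 TPM with vector, a ratio of 0.359 (0.208 to 0.606). Neither gene differed past 1.5-fold in HCT116, where FSCN1 had a ratio of 0.926 and SERPINB5 one of 1.04.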

How the data were processed

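Libraries for a BGISEQ instrument were made from TRIzol-extracted RNA, per the labels' protocols. The submitters' processing notes list TopHat, DESeq 1.32.0 and hg38 without saying what each did. No counting tool or strand setting is named there. The deposited table holds 84345 RefSeq transcript rows. Per the file headers, the authors gave estimated counts, TPM and FPKM, each also as a mean per group. The 36 single-library columns match no label and were not used, so no test across libraries was run.

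Rows were summed per gene and named from the RefSeq table of GRCh38.p14 (17672 of 17818 identifiers matched). Ratios used a pseudocount of 1 TPM, and a gene was measured at 1 TPM or more in either group. Limits were 1.5-fold with USP51 and 2-fold between lines. Intervals are Clopper-Pearson, conditional on the sum, on means rounded to whole counts. Alternatives were a pseudocount of 0.1, no filter, 5 TPM, FPKM, curated transcripts alone, other fold limits, and CPM with TMM or RLE factors (edgeR 4.0.16, R 4.3.3, Python 3.11.15). The ratio and interval steps were tested on simulated data with counting error alone and with differences set in the more abundant genes. Replicate spread and low counts were thus not checked. The members, lists and limits were chosen with earlier results of these data known. All 50 members were to be accounted for. Values in all groups were to be given for those past 1.5-fold with an interval that excludes 1, the most abundant of each role, the EMT factors and those nearest the limit. Of the wider lists, genes past 1.5-fold are named, except 1 that is not reported here.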

Additional observations from a re-analysis of the deposited data

How the results depend on the processing

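No paired analysis was possible because single-library columns could not be matched to the labels, and for the same reason leaving out replicates was not run. No log2 ratio of a member past its limit changed sign under any alternative. The shares of all genes given with the results hold for TPM + 1 alone. In HCT116 the 7 members past 1.5-fold higher became 3 with FPKM (SPARC, TGM2 and LOXL2; TIMP2 and FN1 were at 0.58, THBS1 at 0.56 and TIMP3 at 0.51 on the log2 scale) and 9 with a pseudocount of 0.1 TPM (COL1A1 and HSPG2 added, at 0.59 each), and at 2-fold 2 were higher (SPARC and TGM2) and 0 lower. With curated transcripts alone THBS1 was at 0.31 on the log2 scale and COL1A1 at 0.61. TIMP2 was at 0.57 in CPM. In SW480, where 0 members were past 1.5-fold, 1 was higher in CPM with TMM or RLE factors (COL6A2) and 1 lower with curated transcripts alone (VIM). Between the vector groups, 4 members were higher in SW480 and 5 lower at 4-fold, and the median of 0.27 was 0.12 without a filter and 0.38 with TMM or RLE factors. Medians of the members with USP51 moved by at most 0.1 in each line. Of 869 single values under alternatives, 74 moved by more than their counting interval. The other 795 did not, but some of them could not move. These include all values under a changed filter alone, and those of genes without predicted rows under curated transcripts alone. Depth limits SPARC in HCT116 vector cells (16.7 counts), SNAI2, TNC and COL4A2 in HCT116, and COL4A1 and CDH2 throughout.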
